A study of Bos taurus with 6 samples.

Results

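The transcripts of the epithelial keratins KRT5, KRT7, KRT8, KRT18 and KRT19 were examined in bovine blastocysts. The genes were matched by symbol, and all 5 were found among the 36075 genes of the expression table and among the 48 genes with a keratin symbol. In the MT-treated group the oocytes had been matured in vitro with MT (melatonin) at 1e-07 mol/L over 22 h, and in the control group without it, to ask whether MT during oocyte maturation alters the transcripts of the embryo. All cumulus-oocyte complexes came from ovaries of slaughtered cows, both groups were fertilised and cultured in vitro without further MT being named, and embryos were collected at the blastocyst stage. Each group had 3 libraries, and per the study's methods each library held a pool of 3 blastocysts, the 3 libraries of a group came from separate in vitro production runs, and the groups were handled side by side within a run, so control and MT-treated libraries may share runs. The sample labels state no more than group and replicate, so a p-value measures the spread between these libraries. The methods name the Smart-seq2 protocol and the labels a TruSeq kit, so the library chemistry is uncertain. Values are in TPM, a unit scaled both for gene length and for library total, so that levels can be compared between genes.

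Keratins are the intermediate filament proteins of epithelial cells. A type I keratin and a type II keratin pair to form the filament, and KRT8 (type II) with KRT18 and KRT19 (both type I) is the usual combination of simple, single-layered epithelia. In the blastocyst, the trophectoderm, the outer layer that later forms the placenta, is such an epithelium, and KRT8 and KRT18 are among its best known markers. KRT7 is a type II keratin of simple and glandular epithelia and of placental trophoblast, and KRT5 is a type II keratin of the basal layer of stratified epithelia.

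The libraries of the 2 groups differed over nearly the whole table. Genes with a TPM above 0 numbered 8854 to 8953 in the control libraries and 14372 to 14408 in the MT-treated libraries. A gene was tested where at least 3 libraries had a TPM of 1 or more, and limma called 95.7% of the 11953 such genes different at an adjusted p under 0.05, with 61.6% higher and 34.1% lower in MT-treated blastocysts, and 70.6% were called with a log2 difference of at least 1. The groups did not overlap in 96.1% of the tested genes. The median log2 fold change was 1.12 over all tested genes and -0.09 over the 7556 that were not listed at 0 throughout a group. A call for a single keratin is therefore what most tested genes show. The sequencing depth is unknown because TPM keeps no counts.

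The labelled stage was checked against lineage markers. POU5F1, a pluripotency factor, had TPM of 189.80, 188.31 and 191.28 in control and 193.25, 190.57 and 194.08 in MT-treated libraries, and the trophectoderm genes GATA3, PTGS2 and DAB2 were present in all 6 libraries. CDX2, the trophectoderm transcription factor, and NANOG, a factor of the inner cell mass, were listed at 0 in all 3 control libraries, and SOX2 reached at most 0.02 there. In MT-treated libraries, TPM was 17.23, 15.03 and 16.08 for CDX2, and 8.93, 8.23 and 8.88 for NANOG. The inner cell mass markers SPIC, GDF3 and LIN28B were instead lower in MT-treated libraries. Their mean TPM was 174, 68.8 and 1.21 in control and 76.0, 8.58 and 0.42 in MT-treated libraries. A gene listed at 0 may have been absent or may not have been captured or counted. In pooled blastocysts, fewer cells of a type and less RNA per cell cannot be told apart.

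All 5 keratins differed between the groups, in different directions. With the scaling as deposited, KRT18 and KRT7 were higher and KRT8, KRT19 and KRT5 were lower in MT-treated blastocysts. This count of 2 higher and 3 lower became 3 higher and 1 lower with KRT19 not called when each library was centred on the median of the 5988 genes that reached a TPM of 1 in all 6 libraries, because KRT8 then turned higher. Only KRT7 and KRT5, 2 of the 5 genes, differed by a log2 value of at least 1. The median log2 fold change of the 5 was -0.33. An exact two-sided permutation test with 3 libraries in each group cannot give a p under 0.1, and it gave 0.1 for each of the 5 keratins.

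KRT8 (ENSBTAG00000000836), the most abundant keratin in every library, had TPM of 8716.54, 8540.61 and 8828.17 in control and 6949.97, 6755.89 and 7009.57 in MT-treated libraries. Every MT-treated library lay below every control library. The means were 8695 ± 145 (SD, n = 3) and 6905 ± 133 (SD, n = 3), a control level 1.26-fold that of the MT-treated group. KRT8 ranked 6th among all genes in each control library and 8th or 9th in the MT-treated libraries, and it alone took 0.912% to 0.942% of the listed TPM in control and 0.740% to 0.767% in MT-treated libraries. On the log2(TPM + 1) scale KRT8 fell by 0.33 (SE 0.02, limma adjusted p = 3.47e-06). Under median centring the same gene was higher by 0.15 (limma adjusted p = 0.000109), so the direction of KRT8 depends on what the libraries are scaled to.

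KRT18 (ENSBTAG00000001517), the type I partner of KRT8, had TPM of 2790.79, 2726.02 and 2782.11 in control and 3694.34, 3586.31 and 3682.35 in MT-treated libraries. Here every MT-treated library lay above every control library. The means were 2766 ± 35.2 and 3654 ± 59.2 (SD, n = 3 each), a 1.32-fold increase. KRT18 rose by a log2 fold change of 0.40 (SE 0.02, limma adjusted p = 5.29e-07). Its rank among all genes moved from between 43 and 45 in control to 25 or 26 in MT-treated libraries. The rise was 0.88 under median centring and 0.45 under quantile normalization, so KRT18 was higher under all 3 scalings.

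KRT19 (ENSBTAG00000004905), a type I keratin without the usual tail domain that also pairs with KRT8, had TPM of 726.37, 709.62 and 740.86 in control and 511.14, 488.73 and 506.23 in MT-treated libraries. The groups did not overlap. The means were 726 ± 15.6 and 502 ± 11.8 (SD, n = 3 each), which puts control 1.45-fold above the MT-treated group. KRT19 fell by 0.53 on the log2 scale (SE 0.02, limma adjusted p = 1.27e-06) with the deposited scaling and by 0.45 under quantile normalization. Under median centring the difference was -0.05, with a 95% interval of -0.11 to 0.00 and a limma adjusted p of 0.0636, so the fall was not called there.

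KRT5 (ENSBTAG00000038384) was a far less abundant type II keratin, with TPM of 77.68, 79.00 and 77.49 in control and 24.17, 23.61 and 22.19 in MT-treated libraries. All 3 control libraries lay well above the MT-treated libraries. The means were 78.1 ± 0.822 and 23.3 ± 1.02 (SD, n = 3 each), so the control level was 3.35-fold that of MT-treated blastocysts. KRT5 fell by 1.70 on the log2 scale (SE 0.04, limma adjusted p = 2.93e-08), by 1.22 under median centring and by 1.57 under quantile normalization.

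KRT7 (ENSBTAG00000016165) was close to absent from the control libraries, with TPM of 0.03, 0.06 and 0, and was measured at 21.28, 19.86 and 22.01 in the MT-treated libraries. All 3 MT-treated libraries were far above the control libraries, with a mean of 21.1 ± 1.09 (SD, n = 3). The log2 fold change of KRT7 on the log2(TPM + 1) scale was 4.42 (SE 0.05, limma adjusted p = 1.99e-09). This size depends on the value added before the logarithm, since with 0.1 in place of 1 it was 7.37. It was 4.90 under median centring and 2.80 under quantile normalization. KRT7 passed the filter only through the MT-treated libraries. Near-absence in one group was common in this table, where 4037 of the tested genes were listed at 0 in every control library and 360 in every MT-treated library.

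**Figure D1:**
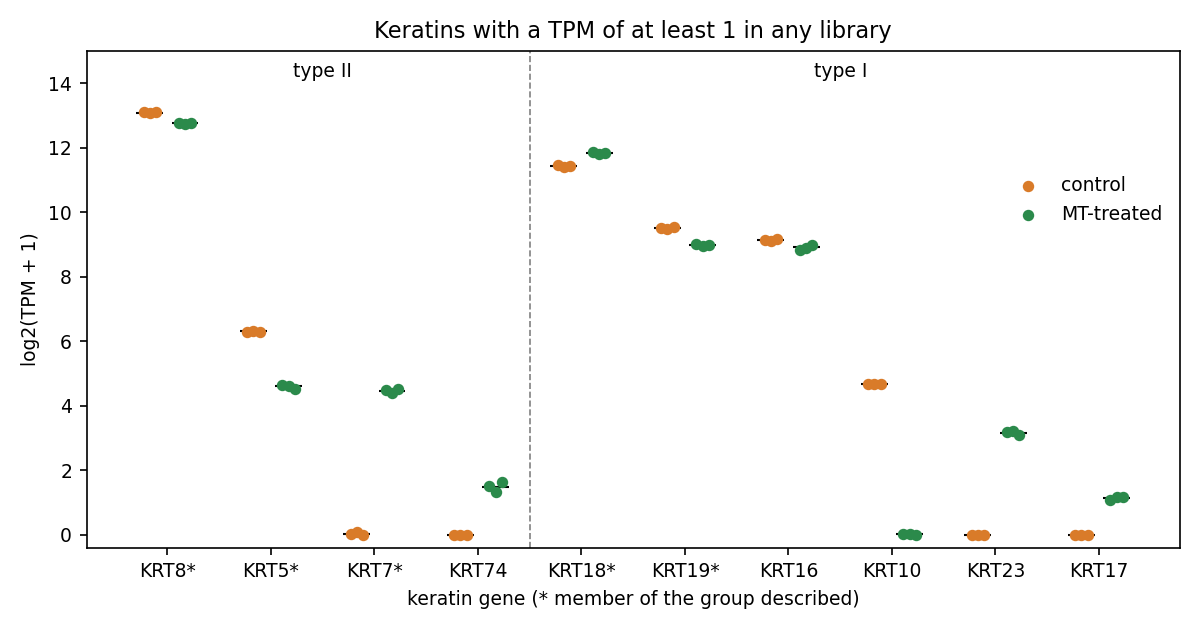
Log2(TPM + 1) of each keratin with a TPM of at least 1 in any library, with type II genes on the left and type I genes on the right. Each point is a library, orange for control and green for MT-treated blastocysts, and the short line is the mean of 3. KRT7, KRT74, KRT23 and KRT17 sit at or near 0 in control, and KRT10 does so in MT-treated libraries.

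The spread between libraries was small beside these differences. The coefficient of variation of KRT8, KRT18 and KRT19 lay between 1.27% and 2.35% in both groups. KRT5 varied by 1.05% in control and 4.38% in MT-treated libraries, and KRT7 by 5.19% in MT-treated libraries.

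**Figure D2:**
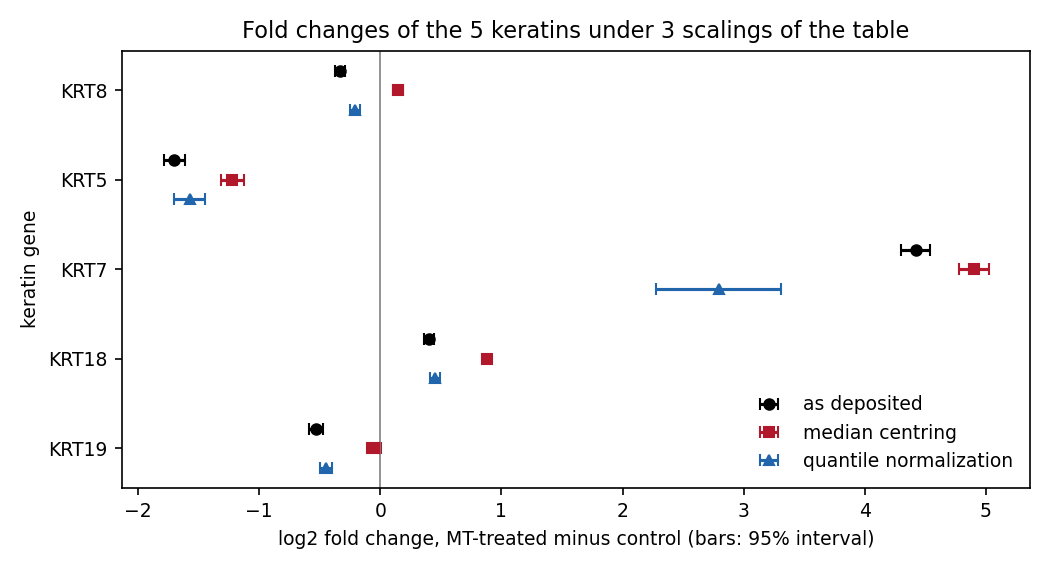
Log2 fold change (x axis, MT-treated minus control) of the 5 keratins with 95% intervals, from limma fits to the table as deposited (black circles), after median centring (red squares) and after quantile normalization (blue triangles). KRT18, KRT7 and KRT5 stay on one side of 0 under all 3 scalings, whereas KRT8 crosses from -0.33 to 0.15 and KRT19 reaches -0.05 under median centring.

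The order of the levels was compared within each group. In control blastocysts the order was KRT8, KRT18, KRT19, KRT16, KRT5 and KRT10, and no neighbours in this order overlapped between libraries. The step from KRT8 to KRT18 was 3.14-fold, that from KRT18 to KRT19 was 3.81-fold, and that from KRT16 to KRT5 was 7.22-fold. In MT-treated blastocysts KRT8, KRT18 and KRT19 kept their places, but KRT19 and KRT16 overlapped, with means only 1.05-fold apart. KRT16 was then 20.5-fold above KRT5. KRT5 and KRT7 came next with means 1.11-fold apart and no overlap, followed by KRT23, KRT74 and KRT17. At these low levels, KRT7 reached 0.880, 0.841 and 0.992 of the KRT5 level in the 3 MT-treated libraries, whereas in control libraries KRT7 was at or near 0.

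Ratios within a library do not change with a constant factor on that library, such as median centring, although quantile normalization alters them. The KRT8 to KRT18 ratio was 3.12, 3.13 and 3.17 in control and 1.88, 1.88 and 1.90 in MT-treated libraries. The means were 3.14 ± 0.0264 and 1.89 ± 0.0122 (SD, n = 3 each). The excess of the type II partner over its type I partner was thus smaller in every MT-treated library, and the log2 ratio fell by 0.73. The 2 type I keratins also moved apart, since the KRT18 to KRT19 ratio was 3.84, 3.84 and 3.76 in control and 7.23, 7.34 and 7.27 in MT-treated libraries. The KRT8 to KRT19 ratio went from 11.98 ± 0.0613 to 13.8 ± 0.138 (SD, n = 3 each), again without overlap. No test was run on these ratios. They show that the transcripts changed unequally and not which of them changed.

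**Figure D3:**
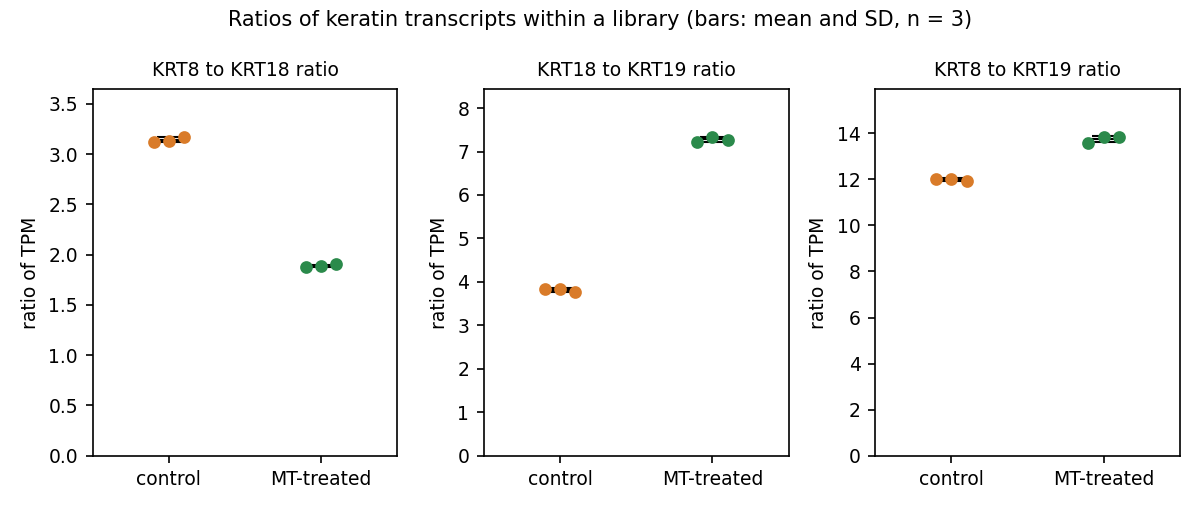
Ratios of TPM within each library for KRT8 to KRT18 (left), KRT18 to KRT19 (middle) and KRT8 to KRT19 (right), on axes that start at 0. Orange points are control and green points MT-treated libraries, with the mean and SD of 3 as bars. The KRT8 to KRT18 ratio sits at 3.12 to 3.17 in control and 1.88 to 1.90 in MT-treated libraries.

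The 5 keratins together held 12265 ± 191 TPM in control and 11106 ± 202 TPM in MT-treated blastocysts (SD, n = 3 each) with the scaling as deposited, or 1.31% ± 0.0199 and 1.22% ± 0.0214 of the listed TPM. Most of this sum is KRT8, whose direction reversed under median centring. They made up nearly the whole keratin pool, at 95.4% ± 0.0198 of the summed TPM of all keratins in control and 95.8% ± 0.217 in MT-treated libraries. Within that pool the share of KRT8 went from 67.6% to 59.5%, and the share of KRT18 from 21.5% to 31.5%. KRT19 went from 5.64% to 4.33% of the pool, and KRT5 from 0.607% to 0.201%, while KRT7 held 0.181% in MT-treated libraries. The groups did not overlap in any of these shares. Type II keratins as a class took 68.3% ± 0.0986 of the pool in control and 59.9% ± 0.0669 in MT-treated blastocysts, and KRT8 was 99.1% of that class in control and 99.3% in MT-treated libraries. Within type I, KRT18 went from 67.8% to 78.7% and KRT19 from 17.8% to 10.8%.

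**Figure D4:**
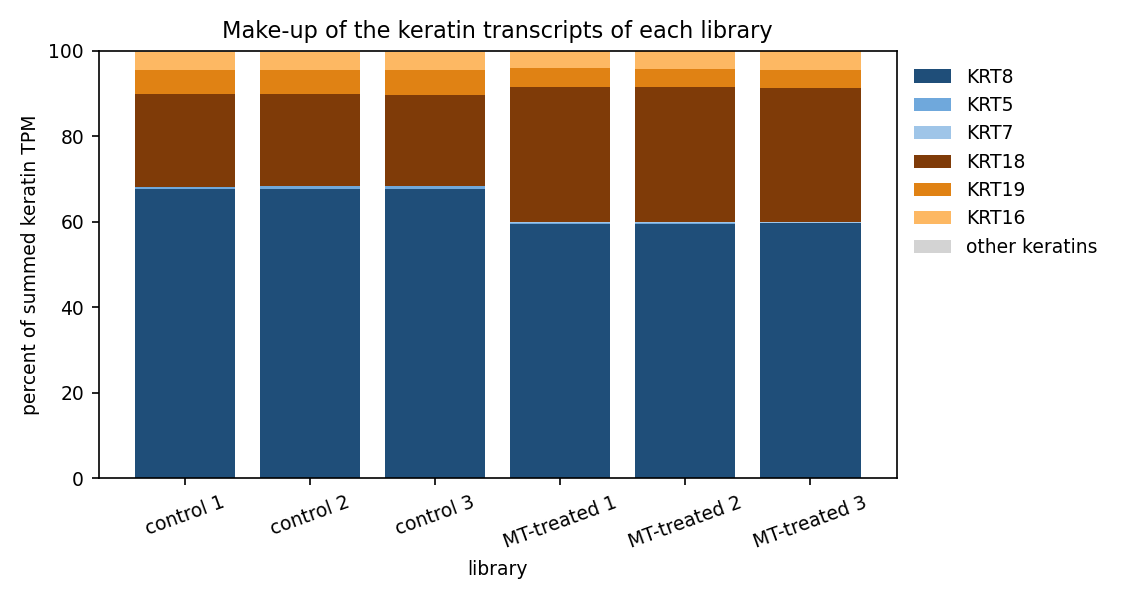
Percent of the summed keratin TPM of each library (y axis) taken by each keratin, with type II genes in blue and type I genes in orange and brown. The KRT8 block falls from 67.6% on average in control to 59.5% in MT-treated libraries and the KRT18 block grows from 21.5% to 31.5%, while the blocks of KRT19 and KRT16 lie between 3.90% and 5.69% and KRT5 and KRT7 are slivers of under 1% each.

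The levels of both partners were also set beside that of another epithelial transcript. EPCAM, an epithelial adhesion molecule, was at 537 ± 8.41 TPM in control and 526 ± 8.24 TPM in MT-treated libraries (SD, n = 3 each), with overlapping groups (log2 fold change -0.03, limma adjusted p = 0.156), although it was called higher under median centring and quantile normalization. The KRT8 to EPCAM ratio was 16.2 ± 0.520 in control and 13.1 ± 0.437 in MT-treated libraries. The KRT18 to EPCAM ratio was 5.16 ± 0.134 and 6.96 ± 0.196 (SD, n = 3 each). Neither ratio overlapped between the groups. As both are divided by the same value, they add nothing to the KRT8 to KRT18 ratio itself.

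Most keratin genes beyond these 5 were listed at 0, and KRT16 was the most abundant of the others. Of the 43 other keratin genes, 33 were listed at 0 in all 6 libraries, and 5 stayed between 0 and 0.11 TPM. The last 5 reached a TPM of at least 1, and all 5 were called by limma, 3 higher and 2 lower in MT-treated blastocysts. Of all tested genes 95.7% were called. The 3 called higher were listed at 0 in every control library and passed the filter only through the MT-treated group. KRT10 passed it only through the control group, so the direction of these genes was fixed by the filter. Of the 5, 1 was higher and 3 were lower under quantile normalization, and 4 were higher and 1 was lower under median centring.

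KRT16 (ENSBTAG00000033766), a type I keratin known from stressed and wounded epidermis, had TPM of 565.52, 551.15 and 574.60 in control and 454.63, 474.32 and 508.68 in MT-treated libraries. Its groups did not overlap, and the log2 fold change was -0.24 (SE 0.04, limma adjusted p = 0.00192), but it was 0.24 under median centring (limma adjusted p = 0.00102) and -0.08 under quantile normalization (limma adjusted p = 0.0869). The level of KRT16 beside KRT14 and KRT17, its close relatives in sequence, is uncertain where reads fit several copies. KRT14, the usual partner of KRT5 in basal cells, was listed at 0 in control libraries and at 0.03, 0.04 and 0 in MT-treated libraries, so neither group held a KRT14 level near that of KRT5. KRT8 and KRT18 are likewise known to have processed copies in mammalian genomes, and how their reads were shared out is not given in the sources used here.

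KRT10 (ENSBTAG00000020824), a type I keratin of the upper epidermal layers, went the other way from KRT7. Its TPM was 24.79, 24.76 and 24.53 in control and 0.02, 0.03 and 0 in MT-treated libraries, with a log2 fold change of -4.66 (limma adjusted p = 5.70e-10) and a lower value under all 3 scalings. Its epidermal type II partner KRT1 was listed at 0 in all 6 libraries. The type I keratin KRT23 was listed at 0 in control and at 8.05, 8.29 and 7.58 in MT-treated libraries. KRT74, a hair root sheath keratin, was listed at 0 in control and at 1.86, 1.53 and 2.12 in MT-treated libraries. KRT17, a keratin of skin appendages, was listed at 0 in control and at 1.12, 1.26 and 1.27. KRT74 and KRT17 were called lower in MT-treated libraries under quantile normalization, which assigns values by rank.

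Keratin genes lie in clusters. In RefSeq ARS-UCD2.0, used here only for gene order because the submitters' notes name ARS-UCD 1.2, all 48 keratin symbols were found, 25 on the chromosome of KRT8 and 23 on that of KRT19. KRT5, KRT7, KRT8 and KRT18 share the chromosome of KRT8, and KRT18, although type I, lies next to KRT8 between KRT8 and EIF4B. The adjacent genes KRT8 and KRT18 thus had log2 fold changes of -0.33 and 0.40 as deposited. EIF4B, a translation initiation factor on the other side of KRT18, was at 31.65, 30.87 and 30.49 TPM in control and 41.35, 40.88 and 41.32 TPM in MT-treated libraries, also a log2 fold change of 0.40. KRT78 and KRT79, the next protein-coding genes beyond KRT8, were listed at 0 in all 6 libraries. The neighbours of KRT19, KRT15 and KRT9, were also listed at 0 in all 6, and KRT80 beside KRT7 did not exceed 0.08 TPM.

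The genes closest to each keratin over the 6 libraries were found by the Euclidean distance of log2(TPM + 1), which reads level and pattern together. The nearest to KRT19 was MPC1, a mitochondrial pyruvate carrier subunit, at a distance of 0.135, followed by MRPS18C and HIGD1A, both at 0.270. KRT8 had no gene as near, with PPIA, a peptidyl-prolyl isomerase, at 0.412, LGALS3, the lectin galectin-3, at 0.517 and ACTB, cytoplasmic actin, at 0.541. KRT18 was nearest to PRDX2, a peroxiredoxin, at 0.324, then RPS13 at 0.502 and NDUFA4 at 0.521. KRT5 was nearest to AP3B1 at 0.188, NKAIN2 at 0.190 and CEP43 at 0.195. KRT7 was nearest to PWWP3A at 0.104, ARHGEF38 at 0.108 and SIAE at 0.109, all listed at 0 in every control library and with mean TPM of 20.99, 20.9 and 20.7 in MT-treated libraries. Few genes are as abundant as KRT8 and KRT18, which leaves fewer candidates near them.

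Partners and regulators of keratin filaments were read from the same fit in 6 lists. Of their 74 symbols 60 were tested, and 31 were higher, 20 lower and 9 not called. Over all tested genes 95.7% were called, 61.6% higher and 34.1% lower. Of the 31 higher, 10 were listed at 0 in every control library and passed the filter only through the MT-treated group. The median log2 fold change was 0.16 over all 60 and -0.02 over the 50 not listed at 0 throughout a group. Under median centring the number lower was 12, and under quantile normalization 30 were higher and 28 lower.

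Desmosomes are the junctions to which keratin filaments attach. Of 14 desmosomal genes 9 were tested, with 3 higher, 5 lower and 1 not called and a median log2 fold change of -0.28. DSP, which ties keratin filaments to the junction, had TPM of 0.58, 0.48 and 0.54 in control and 13.90, 13.58 and 13.68 in MT-treated libraries (log2 fold change 3.26, limma adjusted p = 2.21e-09, and 0.84 under quantile normalization). PKP2, a plakophilin of the same plaque, went from 69.98, 72.68 and 71.34 to 18.27, 20.39 and 18.61 (log2 fold change -1.85, limma adjusted p = 6.08e-08). The transcripts of the plaque proteins DSP and PKP2 thus differed in opposite directions. Among the adhesive cadherins DSC2 rose by a log2 fold change of 1.02, DSG2 rose by 0.19 and DSG3 was lower, at 32.5 ± 3.31 TPM in control and 15.8 ± 1.45 TPM in MT-treated libraries (SD, n = 3 each). JUP, the plaque protein plakoglobin, had a log2 fold change of 0.04 (limma adjusted p = 0.209). Under median centring the list held 5 higher and 2 lower, and under quantile normalization 4 higher and 5 lower.

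The cytolinkers, which join keratins to hemidesmosomes and to other filaments, had 6 of 9 genes tested, with 2 higher, 2 lower and 2 not called. Median centring gave 3 higher and 1 lower, and quantile normalization gave 1 higher and 5 lower. DST, a large linker of the plakin family, went from 1.05, 0.77 and 1.24 TPM in control to 24.51, 25.44 and 33.68 TPM in MT-treated libraries (log2 fold change 3.83, limma adjusted p = 5.29e-07). COL17A1, a hemidesmosomal collagen, was listed at 0 in control and at 2.06, 2.24 and 2.12 in MT-treated libraries, a direction that reversed under quantile normalization. PLEC, plectin, had 39.8 ± 0.877 TPM in control and 26.9 ± 1.86 TPM in MT-treated libraries (SD, n = 3 each). Its log2 fold change of -0.55 was -0.07 under median centring and not called there. EPPK1, epiplakin, fell by 0.68 (limma adjusted p = 8.86e-07), with -0.20 under median centring and -1.17 under quantile normalization.

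Proteins that bind or modify keratins had all 10 genes tested, with 5 higher, 4 lower and 1 not called. Of the 5 higher, 3 were listed at 0 in every control library and passed the filter only through the MT-treated group. Quantile normalization gave 3 higher and 6 lower, and median centring gave 6 higher and 3 lower. TRADD, a death-domain adaptor that binds KRT18, was listed at 0 in control and at 11.21, 11.24 and 12.16 TPM in MT-treated libraries. TCHP, trichoplein, was listed at 0 in control and at 1.01, 1.24 and 1.05, a direction that reversed under quantile normalization. The 3 largest falls were in PNN, pinin, with a log2 fold change of -1.20, YWHAZ, a 14-3-3 protein, with -0.91, and DNAJB6, a chaperone that binds KRT18, with -0.65. DNAJB6 went from 55.4 ± 2.06 to 34.8 ± 0.618 TPM (SD, n = 3 each).

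Other intermediate filament genes had 9 of 15 tested, with 7 higher and 2 lower, and the median log2 fold change was 1.07 over the 6 not listed at 0 throughout a group. Of the 7 higher, VIM, LMNB1 and INA were listed at 0 in control, and the filament gene NES and the lamin LMNB2 stayed under 1 TPM there. These genes passed the filter only through the MT-treated group, which fixed their direction. VIM, the vimentin of mesenchymal and many cultured cells, was listed at 0 in control and at 6.03, 5.96 and 6.69 TPM in MT-treated libraries, far below the level of KRT8. Among the lamins of the nuclear envelope, LMNB1 was listed at 0 in control and at 19.95, 21.04 and 21.44 in MT-treated libraries. LMNA went the other way, from 128 ± 2.29 to 15.3 ± 1.33 TPM (SD, n = 3 each, log2 fold change -2.99, limma adjusted p = 2.29e-08). INA, a neuronal filament subunit, was listed at 0 in control and at 8.72, 8.24 and 8.38. Under quantile normalization the list held 4 higher and 4 lower, and under median centring 8 higher and 1 lower.

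Transcription factors of epithelial genes had all 15 tested, with 10 higher, 4 lower and 1 not called and a median log2 fold change of 0.88, or 0.16 over the 12 not listed at 0 throughout a group. Besides CDX2, the factors GRHL2, OVOL2 and TP63 were at or near 0 in control, and all of these passed the filter only through the MT-treated group. GRHL2, a grainyhead factor of epithelial junction genes, had TPM of 0, 0.04 and 0 in control and 13.66, 14.56 and 14.10 in MT-treated libraries, and OVOL2 was listed at 0 in control and at 11.89, 13.56 and 15.15. TP63, a factor of basal epithelial cells, was listed at 0 in control and at 5.75, 7.60 and 6.29 in MT-treated libraries, where the basal keratin KRT5 was lower. TFAP2A, a trophectoderm and epidermal factor, went from 31.51, 38.92 and 37.77 to 0.46, 0.46 and 0.55 (log2 fold change -4.63, limma adjusted p = 1.57e-08). GRHL3 fell by 3.38, and ELF3, an epithelial ETS factor, fell from 57.7 ± 2.80 to 11.3 ± 0.753 TPM (SD, n = 3 each). Within the grainyhead family GRHL2 and GRHL3 thus differed in opposite directions, and both directions were common over all tested genes.

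Epithelial surface and splicing genes had all 11 tested, with 4 higher, 3 lower and 4 not called and a median log2 fold change of -0.02. The count was 8 higher and 1 lower under median centring and 8 higher and 3 lower under quantile normalization. Those not called included EPCAM, the splicing regulator ESRP1 and the tight junction claudin CLDN4, with log2 fold changes of -0.03, -0.02 and 0.07, and these 3 were called higher under median centring and under quantile normalization. MUC1, a membrane mucin, went from 0.04, 0.06 and 0.06 TPM in control to 20.70, 17.38 and 19.29 TPM in MT-treated libraries. ST14, the protease matriptase, had 7.46, 2 and 2.68 TPM in control, where 1 library stood apart, and 18.56, 18.55 and 19.27 TPM in MT-treated libraries. CDH1, the adherens junction cadherin, rose by a log2 fold change of 0.36. ESRP2, an epithelial splicing regulator, fell by 1.17, the protease inhibitor SPINT1 fell by 0.55 and the GTPase RAB25 fell by 0.54, and under median centring the last 2 were not called.

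**Figure D5:**
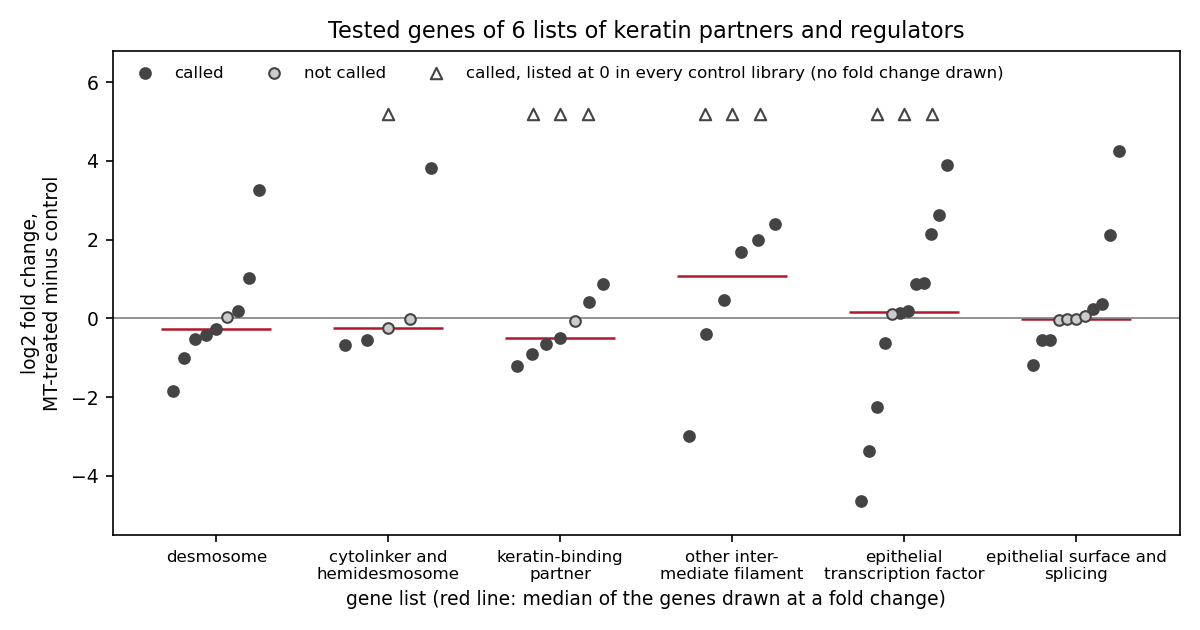
Log2 fold change (y axis, MT-treated minus control, scaling as deposited) of each tested gene in the 6 lists of keratin partners and regulators. Dark points were called by limma, light points were not, open triangles at the top mark genes listed at 0 in every control library, for which no fold change is drawn, and the red line is the median of the genes drawn as points. Each list holds genes on both sides of 0.

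Markers of the cell types that could carry these keratins moved with the groups. The summed TPM of 8 trophectoderm markers was 347 to 356 in control and 493 to 497 in MT-treated libraries, with 7 genes higher and TFAP2A lower. The listed marker IFNT2 was not found by symbol. PTGS2 and DAB2 had the highest levels of the 8, with mean TPM of 129 and 118 in control and 175 and 154 in MT-treated libraries. Of 6 markers of the inner cell mass, 2 were higher, 3 lower and 1 was not called, and their sum was 429 to 437 in control and 292 to 295 in MT-treated libraries. The lower sum came mainly from SPIC and GDF3, with mean TPM of 174 and 68.8 in control and 76.0 and 8.58 in MT-treated libraries. LIN28B was also lower. NANOG and SOX2 went the other way, from means of 0 and 0.007 in control to 8.68 and 6.54, and POU5F1 was not called. The 7 hypoblast markers summed to 18.3 to 18.9 in control and 93.3 to 102 in MT-treated libraries, and all 5 that were tested were higher. Of these, PDGFRA, RSPO3 and HNF4A were listed at 0 in every control library, and GATA6 did not exceed 0.44 TPM there. These genes passed the filter only through the MT-treated group, which fixed their direction. KRT18 and KRT7 were higher in the libraries with the higher sum of trophectoderm markers, as were 61.6% of all tested genes. KRT8, KRT19 and KRT5 were lower there with the scaling as deposited. The part of cell type make-up in the keratin differences was not tested.

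Markers of cells other than the embryo's own were read as well. Per the study's methods, cumulus cells were removed from the zygotes by pipetting and washing. Of 10 cumulus and granulosa markers, the defining genes CYP19A1, INHA and FOXL2 were at or near 0 in all 6 libraries, while FSHR and HSD3B1 were present and carried a sum of 150 to 157 TPM in control and 121 to 123 TPM in MT-treated libraries. Of 6 fibroblast markers, COL1A1, COL3A1 and THY1 were at or near 0, and the sum was 1.87 to 1.99 in control and 13.8 to 18.02 in MT-treated libraries through COL1A2 and DCN. Of 7 keratinocyte markers, KRT1, DSC1, LORICRIN and IVL were listed at 0 in all 6 libraries. The sum of the 7 was 24.6 to 24.8 TPM in control libraries, nearly all of it KRT10, and 0 to 0.07 TPM in MT-treated libraries, from KRT10 and KRT14. The part of such cells in the keratin differences was not tested.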

How the data were processed

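RNA of 6 libraries of pooled bovine blastocysts was sequenced, 3 control and 3 MT-treated. Per the submitters' processing notes, FastQC 0.11.9, STAR 2.7.9a, featureCounts (Subread 1.6.3) and DESeq2 were used with ARS-UCD 1.2, whereas the methods name a later release of that assembly. The authors deposited TPM per gene, rounded to 2 decimals, and how counts became TPM is not given in the sources used here. Because TPM keeps no counts, depth is unknown, and no counting interval is given. Rounding makes values under 0.1 coarse.

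On the log2(TPM + 1) scale, limma 3.58.1 (lmFit, then eBayes with intensity trend; R 4.3.3) was run on all 6 libraries without covariates, for genes that reached a TPM of 1 in 3 or more libraries, and p-values were adjusted by the Benjamini-Hochberg method over all 11953 genes at a threshold of 0.05. Log2 fold changes are on this scale unless another pseudocount is named, and the scale understates changes of low genes. Values written as N-fold are ratios of mean TPM. Standard errors and 95% intervals come from the same fit. Tables, exact permutation tests and plots were made with Python 3.11.15, pandas 2.3.3, scipy 1.17.1 and matplotlib 3.10.9. The fit was tested on simulated data in which few genes changed, so that test does not cover a table where most genes differ.

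The 5 keratins and the gene lists were chosen with earlier results of these data known. Named genes are the 5 keratins, each other keratin with a TPM of at least 1 in any library, up to 3 called rises and 3 called falls of largest size per partner list, the defining markers of each cell type, and the 3 genes nearest to each keratin. EIF4B, KRT14, KRT78, KRT79, KRT15, KRT9, KRT80, JUP and TP63 were named in addition. A few genes that meet this rule are not reported here. Replicate numbers were not treated as pairs. Alternatives were quantile normalization, median centring, a pseudocount of 0.1, a minimum TPM of 5 or none, no intensity trend, a replicate block and each library left out in turn.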

Additional observations from a re-analysis of the deposited data

How the results depend on the processing

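KRT5, KRT7 and KRT18 kept their direction and their call under all 13 alternatives, with log2 fold changes of -1.74 to -1.22, 2.80 to 7.37 and 0.39 to 0.88. Median centring, which moves every log2 difference up by 0.48, turned KRT8 to 0.15 and left KRT19 at -0.051 and not called. It took the keratins called lower from 3 to 1, the other keratins called lower from 2 to 1 and the partner genes called lower from 20 to 12. Over all genes it gave 70.4% higher and 25.4% lower, and quantile normalization gave 46.4% and 44.4%. Quantile normalization left 1 of the other keratins higher in place of 3. Without a filter, 8 other keratins were called, 6 of them higher, and at a minimum TPM of 5 only 3 were tested and called, 1 of them higher.

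With each library left out in turn, all 5 keratins stayed called, with log2 fold changes of -1.73 to -1.67 for KRT5, 4.39 to 4.46 for KRT7, -0.35 to -0.32 for KRT8, 0.39 to 0.41 for KRT18 and -0.55 to -0.51 for KRT19. The log2 ratio of KRT8 to KRT18 then differed by -0.74 to -0.73, and 51 to 53 partner genes were called. The replicate block called the same 5 keratins, and 7379 genes higher and 4082 lower against 7367 and 4071 without it. Deviations of same-numbered libraries correlated at -0.01, 0.00 and 0.06, and only control replicate 3 among the control libraries correlated best with its own number. With 3 libraries in each group, values this near 0 cannot decide whether equal numbers mark a shared run. The unknown depth leaves the counting error of low values, such as those of KRT7 in control, open to no estimate.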

Other observations

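The 3 abundant keratins shared their lowest library in each group. KRT8, KRT18 and KRT19 were each lowest in replicate 2 of the control group and in replicate 2 of the MT-treated group, at 8540.61, 2726.02 and 709.62 TPM and at 6755.89, 3586.31 and 488.73 TPM. KRT5 was highest in control replicate 2, at 79.00 TPM, and KRT7 was lowest in MT-treated replicate 2, at 19.86 TPM. KRT16 followed this order in control, where replicate 2 was lowest at 551.15 TPM, but not in MT-treated libraries, where replicate 1 was lowest at 454.63 TPM. No source used here ties equal replicate numbers to one run, and no test was run on this.

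BFSP2, a filament gene of the eye lens, was listed at 0 in all control libraries and at 8.85, 29.70 and 0 TPM in the MT-treated libraries. It did not pass the filter and was named after its values were seen.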
